A study of Mus musculus with 4 samples.

Results

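Immediate early genes are transcribed within minutes of a stimulus from factors already present in the cell, and they are also induced when tissue is taken apart for single-cell work. The 10 genes described here were taken by symbol from the 32285 features of the deposited matrices: Fos, Fosb, Jun, Junb and Jund, Egr1, Ier2, Klf2, Klf4 and Atf3. They were measured in cells of the subdural meninges of the mouse cerebellum by droplet sequencing of the 3' ends of transcripts (10x Genomics). NdpKO replicates 1 and 2 were knockouts of Ndp, the gene of norrin, a secreted Wnt-type signal that endothelial cells receive through Fzd4. In NdpWT replicates 1 and 2 the gene was intact. Mice of both groups were on a C57/BL6 background and carried Neurod2-SmoA1 on 1 allele, a transgene in which a neuronal promoter drives an activated Smoothened, the transducer of Hedgehog signals. No library was free of the transgene. Each library was a pool of 5 cerebella, each run drew on 3 litters, and each wild-type run had litter mates in a knockout run. The age fields give days 6 to 8 after birth and the protocol gives days 7 to 9. Dura and choroid plexus were left aside, and the tissue was digested with Dispase II at 2.5 mg/mL and 37 °C for 30 min and again for 5 min, triturated 25 times and spun through 22% Percoll. The libraries were compared to learn how these genes differ between genotypes in each cell class, and whether the difference in vascular cells is unlike that in fibroblasts and macrophages. That contrast was posed with results of these data in view.

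Fos and Fosb pair with the Jun proteins to form AP-1, a factor that binds DNA as a dimer, and Atf3 is a relative that can pair with Jun proteins and often represses. Egr1 is a zinc finger factor downstream of ERK signals, and Ier2 is a short-lived nuclear protein of the same early response. Klf2 and Klf4 are Krüppel-like factors that endothelial cells switch on under laminar flow through the MEK5-ERK5 branch and Mef2 factors. Klf4 and Atf3 also take part in the inflammatory and stress responses of macrophages.

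Totals were 123270687 and 125981161 UMIs (molecular tags, each counting a captured RNA once) in NdpKO replicates 1 and 2, against 114363848 and 121735724 in NdpWT replicates 1 and 2. After filters on cells 5693 and 10736 barcodes remained in the NdpKO libraries and 9079 and 12561 in the NdpWT libraries. NdpKO replicate 1 stood apart: 44.1% of its barcodes passed, against 64.8% to 67% in the other 3 libraries, 21.8% of them exceeded the mitochondrial limit, and its kept cells held a median of 14416 UMIs, against 7220 to 9464 elsewhere. Pairs of libraries shared 48 to 98 cell barcodes. Ndp, the deleted gene, had 40 and 50 UMIs in the NdpKO libraries, or 0.40 and 0.47 CPM of all kept cells (counts per 1000000 UMIs, 95% exact Poisson intervals 0.28 to 0.54 and 0.35 to 0.61, counting error only). It had 200 and 138 UMIs in the NdpWT libraries, or 2.07 and 1.35 CPM (1.79 to 2.38 and 1.14 to 1.60). Cells were clustered and named from fixed markers, so every class name below means cells like that type. In 10 of the 11 classes tested, which each had at least 50 cells in every library, all 10 members passed the filter on low counts, and 9 did in the class of other neurons, where Atf3 did not. All 14 endothelial, all 12 mural and all 13 macrophage markers were higher in their own class than in the other classes, as were 13 of 14 fibroblast markers. The share was lowest in other neurons, with 10 of 15 markers, and in arachnoid barrier cells, with 8 of 10.

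All 10 genes matched the annotation (GENCODE M21, GRCm38, the assembly also called mm10) by identifier. Fos (ENSMUSG00000021250) lies on the forward strand of chromosome 12 at 85473890 to 85477273, with 4 exons, and Fosb on the reverse strand of chromosome 7 at 19302696 to 19310051, also with 4. The Jun genes have 1 exon each: Jun on chromosome 4 at 95049034 to 95052222, Junb on chromosome 8 at 84974484 to 84978718 and Jund on chromosome 8 at 70698949 to 70700616. Jun overlaps the antisense gene Junos, Jund overlaps the antisense gene Gm11175 and Junb overlaps Prdx2 on the other strand. Whether the counting used strand is not stated in these sources, so tags of these overlaps are uncertain. Ier2 lies on chromosome 8 (84661331 to 84662852), Klf2 on chromosome 8 (72319033 to 72321656), Klf4 on chromosome 4 (55527143 to 55532466) and Atf3 on chromosome 1 (191170296 to 191218039).

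The RefSeq promoter table (GRCm38.p6) held 8 of the 10 genes, all but Egr1 and Ier2. The 300 bases around each start, 250 before and 50 after it, were searched on both strands. The core TGACG of the cAMP response element was present in 6 of these 8, namely Fos, Fosb, Junb, Klf2, Klf4 and Atf3, against 20.8% of 32851 promoters. The search for TGACG also counts the full element TGACGTCA, which was in 0 of 8 and in 1.79% of all promoters. The AP-1 element TGACTCA was in 0 of 8 (5.2% of all promoters), and the CArG box of serum response factor in 0 of 8 (1.63%). Sites outside this window were not searched, so a count of 0 does not mean that these genes lack the element. For Jund the 250 upstream bases end at 70697738, well before the gene start of 70698949 in the annotation. The 250 bases upstream of the starts of Fos and Junb are shown because Fos is the member called within endothelial cells and Junb the one whose change differed between endothelial cells and both fibroblasts and macrophages under every library left out. They lie at chr12:85473640-85473889 on the forward strand and chr8:84978749-84978998 on the reverse strand, and run 5′ to 3′ towards the gene with TGACG in capitals.
Fos: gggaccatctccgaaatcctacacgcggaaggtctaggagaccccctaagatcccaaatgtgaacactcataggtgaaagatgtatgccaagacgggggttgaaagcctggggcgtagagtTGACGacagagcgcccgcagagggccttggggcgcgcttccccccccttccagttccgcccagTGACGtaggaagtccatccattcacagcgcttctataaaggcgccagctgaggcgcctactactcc
Junb: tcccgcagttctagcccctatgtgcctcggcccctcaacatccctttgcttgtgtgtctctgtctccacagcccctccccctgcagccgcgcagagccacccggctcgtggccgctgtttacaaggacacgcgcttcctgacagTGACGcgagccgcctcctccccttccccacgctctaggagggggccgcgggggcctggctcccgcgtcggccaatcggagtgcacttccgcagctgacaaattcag
In Fos the matches end 125 and 62 bases before the start, and in Junb the match ends 102 bases before it. A match is a description of these letters and not a bound site.

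These genes were unevenly spread over the cell classes. Levels here are CPM within a class and library, with TMM scaling, and each gene is compared between classes only with itself, since 3' tags are not counted per length. Fos averaged 1383 ± 259 CPM over the 4 libraries (SD, n = 4) in a cluster of endothelial cells led by Gkn3, Fbln5, Egfl8 and Eln, of which Eln encodes elastin and Fbln5 an elastic fibre protein. It followed with 1098 ± 184 CPM in mural cells, 1038 ± 211 CPM in monocytes or dendritic cells, 919 ± 441 CPM in fibroblasts and 567 ± 203 CPM in macrophages, and these 5 neighbours in order overlapped in their library ranges. The remaining endothelial cells held 280 ± 114 CPM, arachnoid barrier cells 255 ± 30.4 CPM and other neurons 207 ± 47.7 CPM, again with overlapping ranges. Erythroid cells held 95.5 ± 28.6 CPM, granule neurons 37.3 ± 7.24 CPM and cycling cells 29.8 ± 4.94 CPM. The erythroid level rested on 1 cluster of 112 cells, with Lum and Slc7a11 among its 10 leading genes, which held Fos at 775 ± 486 CPM. Without it erythroid cells held 22.2 ± 6.09 CPM (plain totals, SD, n = 4), a value looked up after the data were seen. Erythroid markers took 601085 to 646274 CPM of erythroid UMIs in the 4 libraries, which lowers the CPM of every other gene there. Erythroid levels are therefore not on the same footing as those of other classes.

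The Gkn3, Fbln5 and Eln cluster had the highest mean of any class for 8 of the 10 genes, and monocytes or dendritic cells had it for Junb and Atf3. Klf2 averaged 1452 ± 239 CPM in that cluster and 594 ± 106 CPM in the other endothelial cells, with no overlap between the libraries' ranges (SD, n = 4 each). Klf4 averaged 971 ± 138 CPM there and 397 ± 24.4 CPM in monocytes or dendritic cells, the next class. Both factors were low in cycling cells, with 7.72 ± 2.56 CPM for Klf2 and 7.09 ± 1.43 CPM for Klf4. Jun was spread more evenly, from 1429 ± 196 CPM in the Gkn3 cluster to 180 ± 21.8 CPM in erythroid cells, and 8 of its 10 pairs of neighbouring classes overlapped. Jund was the most even member, from 833 ± 126 CPM in the Gkn3 cluster to 262 ± 35.2 CPM in erythroid cells, and 9 of its 10 pairs overlapped. The Gkn3 cluster had 7 endothelial markers among its 50 leading genes but 0 among its first 10. All 14 endothelial markers were higher in this cluster than in the other classes. The cluster was kept apart from the other endothelial cells in the tests. In summed cells, fewer cells that express a gene and less RNA per cell cannot be told apart.

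**Figure D1:**
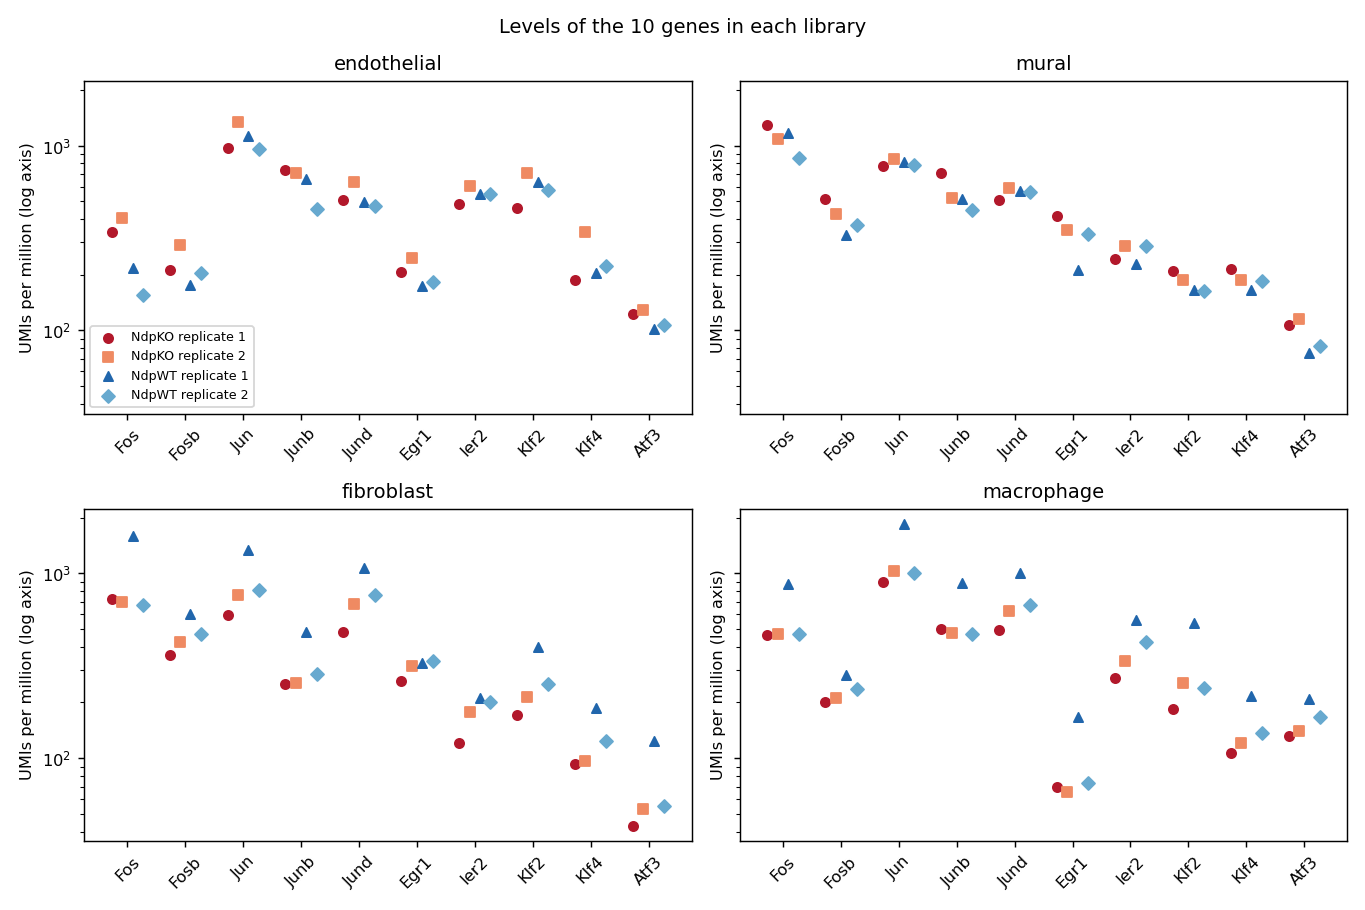
Level of each of the 10 genes (CPM, log axis) in the 4 libraries of endothelial, mural, fibroblast and macrophage cells, NdpKO replicates left of NdpWT replicates. In fibroblasts and macrophages NdpWT replicate 1 is the highest point for 9 and 10 of the 10 genes, and in endothelial cells Fos is higher in both NdpKO libraries than in both NdpWT libraries.

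In endothelial cells Fos rose. It had 342 and 405 CPM in NdpKO replicates 1 and 2, against 218 and 156 CPM in NdpWT replicates 1 and 2, and the groups did not overlap. The means were 373 ± 44.9 CPM in NdpKO and 187 ± 43.5 CPM in NdpWT (SD, n = 2 each). The log2 change fitted by edgeR was 1.01 ± 0.18 (SE), or 2.01-fold. Its adjusted p was 0.0128 by edgeR's quasi-likelihood test with Benjamini-Hochberg adjustment over 11497 genes. Of these genes 1.47% were called higher in NdpKO (2.98% in either direction), and Fos was the only member called.

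The other AP-1 genes of endothelial cells did not pass the test. Fosb had 212 and 291 CPM in NdpKO and 176 and 204 CPM in NdpWT, a log2 difference of 0.40 ± 0.17 that missed the threshold (adjusted p = 0.355). Junb had 738 and 710 CPM in NdpKO and 663 and 456 CPM in NdpWT, and its log2 difference of 0.38 ± 0.18 missed it as well (adjusted p = 0.445). Both genes were higher in every NdpKO library than in every NdpWT library. Jun, whose product is the usual partner of Fos, had 965 and 1347 CPM in NdpKO and 1132 and 953 CPM in NdpWT, and the groups overlapped. For 6 of the 10 members both NdpKO libraries lay above both NdpWT libraries, against 21.3% of all genes tested, and for 0 members both lay below (21.0% of genes). At an unadjusted p under 0.05 the count was 3 members higher, against 6.76% of genes.

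Egr1 lies on chromosome 18. In endothelial cells it had 207 and 245 CPM in NdpKO and 173 and 184 CPM in NdpWT (log2 difference 0.34 ± 0.14, adjusted p = 0.347). For the flow-responsive factors the genotypes overlapped. Klf2 had 459 and 712 CPM in NdpKO and 631 and 573 CPM in NdpWT, and Klf4 had 186 and 340 CPM in NdpKO and 205 and 223 CPM in NdpWT. The log2 differences were -0.04 ± 0.20 and 0.30 ± 0.29, and the NdpWT values lay inside the range of the NdpKO values for both. Ier2 differed by -0.01 ± 0.15, and Atf3 had 123 and 128 CPM in NdpKO and 102 and 107 CPM in NdpWT.

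The call on Fos depended on which libraries entered. Its log2 change was 0.88 (adjusted p = 0.0927) without NdpKO replicate 2 and 0.78 (0.0633) without NdpWT replicate 2, and it was still called without NdpKO replicate 1 (1.12, 0.0366, with 0.599% of genes called higher) and without NdpWT replicate 1 (1.25, 3.97e-06, with 1.48%), where Junb was called too. Over these and the other settings tried, the adjusted p of Fos ran between 5.16e-09 and 0.234. It was highest when the Gkn3, Fbln5 and Eln cluster was summed with the other endothelial cells, a setting in which the log2 change was 0.64. Sums of other cells' markers were uneven: fibroblast markers summed to 4676 and 3121 CPM in NdpKO endothelial cells and 673 and 2692 CPM in NdpWT ones, and erythroid markers to 29595 and 13739 CPM in NdpKO ones and 13598 and 20874 CPM in NdpWT ones. The leading genes of the Gkn3 cluster summed to 1343 and 2075 CPM in the other endothelial cells of NdpKO and 1093 and 1490 CPM in those of NdpWT, against 26419 to 32987 CPM within that cluster in the 4 libraries. The part of these in the Fos result was not tested. In the larger of the 2 endothelial clusters alone, led by Kdr and Ctla2a, Fos had 313 and 439 CPM in NdpKO and 221 and 150 CPM in NdpWT (plain totals). In the smaller one, with a median of 1589 UMIs per cell, Fos had 512 and 203 CPM in NdpKO and 87.3 and 218 CPM in NdpWT, and the groups overlapped.

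In the Gkn3, Fbln5 and Eln cluster no member passed the test. Fos had 1399 and 1416 CPM there in NdpKO and 1674 and 1043 CPM in NdpWT, a log2 difference of 0.05 ± 0.21. Klf2 had 1115 and 1668 CPM in NdpKO and 1553 and 1472 CPM in NdpWT, and Klf4 had 838 and 1088 CPM in NdpKO and 1093 and 866 CPM in NdpWT. In both genes the groups overlapped. edgeR called 0 of 10 members in either direction (0.0% of 10964 genes), with 0 members at an unadjusted p under 0.05 (1.78% of genes higher and 1.74% lower), and DESeq2 called 0 (0.011% of genes). The 10 log2 differences ran from -0.39 to 0.05, and 9 of them were negative. NdpWT replicate 1 held 69 cells of this cluster, against 142 and 184 in the NdpKO libraries and 305 in NdpWT replicate 2. Whether the effect on Fos differs between this cluster and the other endothelial cells was not tested.

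In mural cells, the pericytes and smooth muscle cells of vessel walls, no member passed the test. Fosb had 512 and 425 CPM in NdpKO and 328 and 369 CPM in NdpWT, a log2 difference of 0.42 ± 0.14 (adjusted p = 0.514). Atf3 had 107 and 115 CPM in NdpKO and 75.3 and 82.6 CPM in NdpWT, a difference of 0.49 ± 0.16 (adjusted p = 0.514). Both were higher in every NdpKO library. Egr1 had 414 and 348 CPM in NdpKO and 212 and 332 CPM in NdpWT, and Junb had 707 and 521 CPM in NdpKO and 516 and 450 CPM in NdpWT. Fos itself had 1286 and 1084 CPM in NdpKO and 1170 and 852 CPM in NdpWT, with overlap. The lowest adjusted p of the 10 members was 0.514.

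For 6 of the 10 members both NdpKO mural libraries lay above both NdpWT ones, against 17.6% of the 10847 genes tested, and 9 log2 differences were positive. edgeR called 0 members (0.0369% of genes in either direction), 4 were higher at an unadjusted p under 0.05 (3.36% of genes), and DESeq2 called 0 (0.0931%). Without NdpWT replicate 2 edgeR called 1 member, Egr1, with a log2 change of 0.85 (adjusted p = 0.0101, with 0.545% of genes called higher). The Atf3 difference was -0.12 once each cell was thinned to 1000 UMIs, so its direction turned round with that thinning. NdpKO mural cells were the deeper ones, with medians of 19010 and 11530.5 UMIs in NdpKO and 9875 and 7236.5 in NdpWT. Erythroid markers summed to 27759 and 14785 CPM in NdpKO mural cells and 1049 and 19678 CPM in NdpWT ones, and their part was not tested.

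In fibroblasts most members lay lower in NdpKO, and 1 wild-type library stood far above the rest. Fos had 724 and 700 CPM in NdpKO replicates 1 and 2, against 1581 and 673 CPM in NdpWT replicates 1 and 2, so NdpWT replicate 1 stood alone and the other 3 libraries were close. Jun had 594 and 763 CPM in NdpKO and 1336 and 816 CPM in NdpWT, and Atf3 had 42.9 and 52.7 CPM in NdpKO and 123 and 54.9 CPM in NdpWT. In both, NdpWT replicate 1 was far above the other 3 libraries. Klf4 had 93.0 and 96.6 CPM in NdpKO and 187 and 123 CPM in NdpWT, and its log2 difference of -0.71 ± 0.19 had the lowest adjusted p of the 10 members (0.317). Klf2 had 170 and 214 CPM in NdpKO and 397 and 252 CPM in NdpWT. For Klf2 and Klf4 the second wild-type library was also above both knockout libraries. Egr1 had the smallest difference, with 260 and 315 CPM in NdpKO and 325 and 334 CPM in NdpWT.

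The remaining fibroblast members were lowest in NdpKO replicate 1 and highest in NdpWT replicate 1. Fosb had 359 and 425 CPM in NdpKO and 600 and 466 CPM in NdpWT, and Junb had 251 and 255 CPM in NdpKO and 482 and 284 CPM in NdpWT. Jund had 479 and 680 CPM in NdpKO and 1064 and 759 CPM in NdpWT, and Ier2 had 120 and 178 CPM in NdpKO and 210 and 201 CPM in NdpWT. In each of these 4 genes the lower NdpWT library was above the higher NdpKO library.

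The genotypes also differed in which fibroblast clusters their cells lay in. The cluster led by Col15a1 and Itih5 held 17.6% and 23.5% of fibroblasts in NdpKO and 42.4% and 35.5% in NdpWT. The shallow cluster led by Ptgds and Agt held 25.5% and 16.5% in NdpKO and 6.14% and 12.3% in NdpWT. The part of this make-up in the sums over the class was not tested, and values within clusters are given further on.

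All 10 fibroblast log2 differences were negative, between -0.90 and -0.20 with a median of -0.66, against a median of 0.00 over all 15622 genes tested. For 9 members both NdpKO libraries lay below both NdpWT libraries, against 19.4% of genes. edgeR called 0 members (0.0448% of genes in either direction), 7 were lower at an unadjusted p under 0.05 (4.05% of genes), and DESeq2 called 2, Klf4 and Klf2, with adjusted p-values of 0.0265 and 0.0258 (0.3% of genes called lower by DESeq2). NdpWT replicate 1 was the highest library for 9 members (26.3% of all genes) and at least 1.5 times the next library for 6 (0.973% of all genes). Without NdpWT replicate 1 the log2 differences ran from -0.43 to 0.08 and edgeR called 0 members lower (0.54% of genes). Without NdpWT replicate 2 they ran from -1.37 to -0.18 and edgeR called 7 members lower (Fos, Jun, Junb, Jund, Klf2, Klf4 and Atf3), against 0.746% of genes. The log2 ratio of NdpWT replicate 1 to NdpWT replicate 2 had a median of 0.63 over the 10 members, and that of NdpKO replicate 1 to NdpKO replicate 2 a median of -0.29.

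Macrophages gave nearly the same picture. Fos had 465 and 466 CPM in NdpKO, against 872 and 466 CPM in NdpWT, so 3 libraries were level and NdpWT replicate 1 was high. Jun had 895 and 1022 CPM in NdpKO and 1849 and 1009 CPM in NdpWT, and Klf2 had 184 and 256 CPM in NdpKO and 540 and 238 CPM in NdpWT, and in both the groups overlapped. Egr1 had 69.8 and 65.3 CPM in NdpKO and 166 and 73.1 CPM in NdpWT. Ier2 had 272 and 335 CPM in NdpKO and 555 and 424 CPM in NdpWT, so both wild-type libraries were above both knockout libraries. Its log2 difference of -0.69 ± 0.17 had the lowest adjusted p of the 10 members in this class (0.403). Atf3 had 132 and 140 CPM in NdpKO and 209 and 168 CPM in NdpWT, and Klf4 had 106 and 120 CPM in NdpKO and 216 and 137 CPM in NdpWT.

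All 10 macrophage log2 differences were negative, between -0.83 and -0.33 with a median of -0.58, against a median of 0.00 over 12783 genes. For 7 members both NdpKO libraries lay below both NdpWT libraries, against 16.2% of genes. edgeR called 0 members (0.0939% of genes in either direction), 5 were lower at an unadjusted p under 0.05 (2.19% of genes), and DESeq2 called 0 (0.0199% of genes lower). NdpWT replicate 1 was the highest library for 10 of 10 members (26.3% of all genes) and at least 1.5 times the next for 7 (0.939% of all genes). Without it the log2 differences ran from -0.48 to 0.06 and edgeR called 0 members lower (0.278% of genes). Without NdpWT replicate 2 edgeR called 9 lower, all but Fosb, against 0.538% of genes, with differences from -1.30 to -0.46.

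The high level of NdpWT replicate 1 ran through the clusters of both classes. In all 5 fibroblast clusters the summed CPM of the 10 members (plain totals) was highest in NdpWT replicate 1. In the largest, led by Aebp1 and Ranbp3l, it was 3395 and 3994 CPM in NdpKO and 7635 and 4445 CPM in NdpWT. In the collagen cluster led by Mfap5 and Col1a1 it was 3773 and 4473 CPM in NdpKO and 5447 and 4762 CPM in NdpWT. In the largest macrophage cluster, led by Ccl2, Mrc1 and Lyve1, it was 3647 and 4161 CPM in NdpKO and 6789 and 4220 CPM in NdpWT. The macrophage cluster led by Aif1 and Hmox1, with a median of 1708 UMIs per cell, was the exception, with 1052 and 1439 CPM in NdpKO and 1644 and 1830 CPM in NdpWT, highest in NdpWT replicate 2. In the mural class, by contrast, NdpWT replicate 1 was the highest library for 0 of 10 members (28.2% of all genes). In endothelial cells outside the Gkn3, Fbln5 and Eln cluster it was also highest for 0 of 10 (29.7%). Within that cluster it was highest for 7 of 10 members, and at least 1.5 times the next library for 1. In arachnoid barrier cells, and in monocytes or dendritic cells, it was highest for 5 of 10. For these last counts the share of all genes is not given here.

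Heat shock genes and mitochondrial UMIs were not highest in NdpWT replicate 1. Heat shock genes summed to 5373 and 5848 CPM in NdpKO fibroblasts and 5805 and 6330 CPM in NdpWT ones, and to 4713 and 5168 CPM in NdpKO macrophages and 5052 and 5385 CPM in NdpWT ones. In both classes NdpWT replicate 2, not NdpWT replicate 1, held the most. Mitochondrial UMIs were 5.61% and 4.82% of fibroblast UMIs in NdpKO and 4.17% and 3.76% in NdpWT. The part of digestion, time to capture or RNA quality in the level of NdpWT replicate 1 was not tested.

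**Figure D2:**
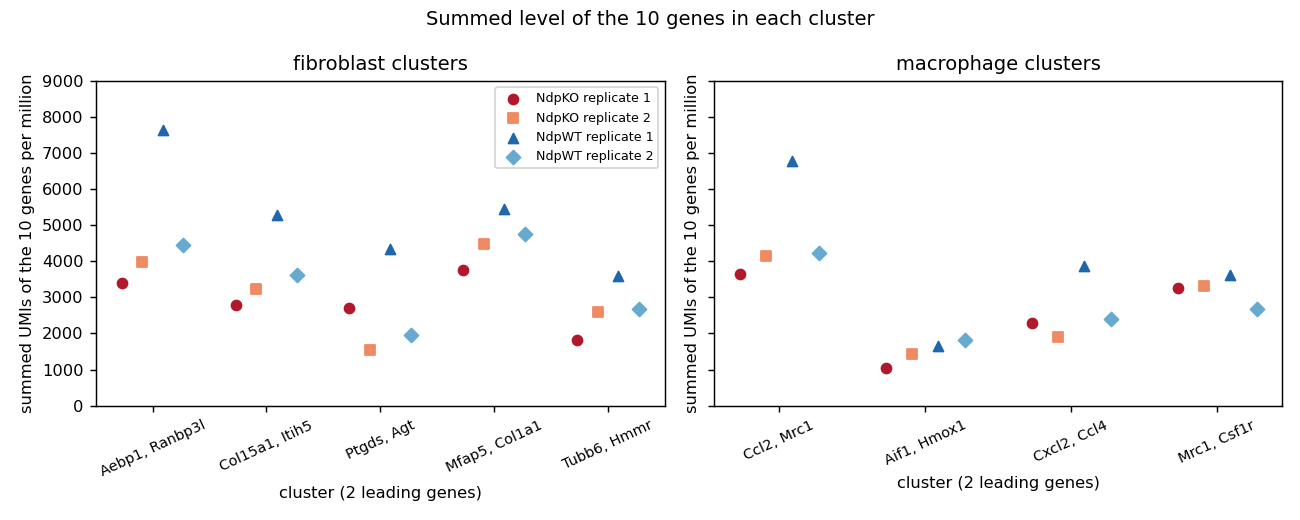
Summed level of the 10 genes (CPM of plain totals) in each library, for every cluster of the fibroblast and macrophage classes, NdpKO libraries left of NdpWT libraries. NdpWT replicate 1 is the highest library in each of the 5 fibroblast clusters and in the macrophage cluster led by Ccl2 and Mrc1 (6789 CPM), but not in the one led by Aif1 and Hmox1 (1644 CPM).

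In the other 6 classes edgeR called 0 members (0.0% of genes in each). DESeq2 called 0 too, with 0.0609% of genes called in arachnoid barrier cells, 0.0279% in cycling cells, 0.0158% in erythroid cells, 0.0115% in monocytes or dendritic cells and 0.0% in granule and other neurons. Single values past an unadjusted p of 0.05 were spread over them. In arachnoid barrier cells 4 of 10 members were lower at that level (2.27% of genes), and Klf2 had 224 and 248 CPM in NdpKO and 439 and 301 CPM in NdpWT (log2 difference -0.65 ± 0.18, adjusted p = 0.834, and -0.90 with 0.0314 without NdpWT replicate 2, where 0.0778% of genes were called lower). In monocytes or dendritic cells Fos had 1267 and 1149 CPM in NdpKO and 938 and 796 CPM in NdpWT (0.48 ± 0.18), the only member past an unadjusted p of 0.05 in that class (1.84% of genes higher). This is the myeloid class beside macrophages, and there NdpWT replicate 1 was at least 1.5 times the next library for 0 members (2.13% of genes).

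In the class of other neurons Fosb had 62.6 and 83.1 CPM in NdpKO and 14.9 and 30.9 CPM in NdpWT, a log2 difference of 1.86 ± 0.32 whose adjusted p of 0.0933 missed the threshold. It passed without NdpKO replicate 1 (2.07, adjusted p = 8.98e-06), without NdpKO replicate 2 (1.65, 0.00303) and without NdpWT replicate 2 (2.26, 3.28e-07), where Egr1 passed too (adjusted p = 0.00307). Genes called higher made up 0.136%, 0.339% and 0.298% of those tested without these libraries. In granule neurons Klf2 had 5.32 and 6.91 CPM in NdpKO and 8.83 and 11.3 CPM in NdpWT, and Fosb had 41.2 and 31.8 CPM in NdpKO and 17.1 and 31.1 CPM in NdpWT. Without NdpWT replicate 2 this Fosb difference was called (1.09, adjusted p = 1.48e-05, with 0.743% of genes called higher). In erythroid cells Atf3 had 5.00 and 5.07 CPM in NdpKO and 10.2 and 9.64 CPM in NdpWT. Within the erythroid cluster of 112 cells it had 21.6 and 36.7 CPM in NdpKO and 114 and 55.0 CPM in NdpWT (plain totals), and in the other 3 erythroid clusters at most 6.94 CPM in any library.

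**Figure D3:**
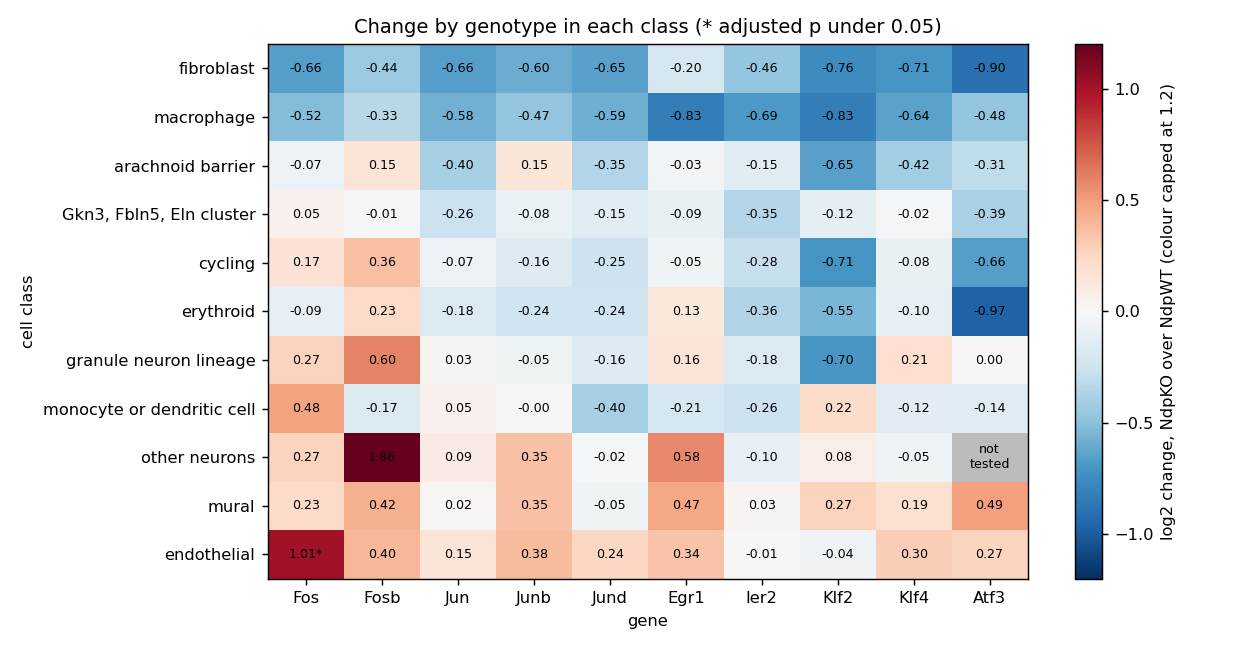
Log2 difference between NdpKO and NdpWT (edgeR) for each of the 10 genes in the 11 classes, as a colour scale. Fibroblast and macrophage rows are negative for all 10 genes, the mural row is positive for 9, Atf3 was not tested in other neurons, and only Fos in endothelial cells passes the adjusted threshold.

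The difference between classes was tested directly, as the log2 change in one class minus that in another within the same libraries. All 10 differences were positive in each of the 4 pairs of a vascular with a non-vascular class. The vascular classes here were mural cells and the endothelial cells outside the Gkn3, Fbln5 and Eln cluster. That cluster was in no pair, and 9 of its 10 log2 differences by genotype were negative, with a median of -0.10 and 0 called. The class pairs share libraries, so their results are given side by side and not as separate support. Between endothelial cells and fibroblasts edgeR called 4 members: Junb 0.95 ± 0.10 (adjusted p = 0.000148), Egr1 0.55 ± 0.10 (0.00823), Ier2 0.48 ± 0.11 (0.0236) and Jund 0.90 ± 0.15 (0.0237), against 1.93% of 15195 genes called higher. Fos had the widest difference, 1.55 ± 0.37, but missed the threshold (adjusted p = 0.29) with a wide error. It was called by DESeq2 (1.55, adjusted p = 0.00133), which called 2 members in all, Junb and Fos (0.405% of genes). Without NdpKO replicate 1 edgeR called 2 members, Jund and Junb (1.42% of genes), and without NdpKO replicate 2 it called 4 (2.57%). It called 6 without NdpWT replicate 1 (1.59%) and 9 without NdpWT replicate 2 (1.95%). Junb was called with each library left out in turn, between 0.82 and 1.04.

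Between endothelial cells and macrophages edgeR called 5 members: Fos 1.44 ± 0.14 (adjusted p = 4.12e-05), Junb 0.78 ± 0.13 (0.00173), Atf3 0.70 ± 0.14 (0.0114), Ier2 0.65 ± 0.13 (0.012) and Jund 0.78 ± 0.15 (0.0133), against 1.1% of 13484 genes called higher. Fos and Junb were called with each library left out in turn, Fos between 1.24 and 1.65 and Junb between 0.59 and 0.96. They were the 2 members called without NdpKO replicate 1 (0.418% of genes), without NdpKO replicate 2 (0.828%) and without NdpWT replicate 1 (1.22%), and leaving out NdpWT replicate 2 gave 9 (1.71%). DESeq2 called Fos alone (1.45, adjusted p = 4.39e-05, with 0.149% of genes).

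Between mural cells and fibroblasts edgeR called 0 members (0.711% of 14909 genes were called higher), 3 had an unadjusted p under 0.05 (5.2% of genes), and DESeq2 called 1, Klf2 (1.00, adjusted p = 0.0476, with 0.0935% of genes). Leaving out a library gave 5 members without NdpKO replicate 1 (0.441% of genes), 7 without NdpKO replicate 2 (1.57%), 4 without NdpWT replicate 1 (0.638%) and 10 without NdpWT replicate 2 (0.722%). Between mural cells and macrophages edgeR called 1 member, Atf3 (0.95 ± 0.17, adjusted p = 0.0346), against 0.0461% of 13009 genes. DESeq2 called 0 members (0.0% of genes), with an adjusted p for Atf3 of 1.00. The call was also lost with cells thinned to 1000 UMIs (0.64 ± 0.46), with plain totals (0.83, adjusted p = 0.104), without NdpKO replicate 1 (0.95, 0.190, with 0.0298% of genes called higher) and without NdpWT replicate 1 (0.75, 0.149, with 0.0822%). Without NdpKO replicate 2 there were 3 members called (0.21%), and without NdpWT replicate 2 all 10 were (0.282%).

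**Figure D4:**
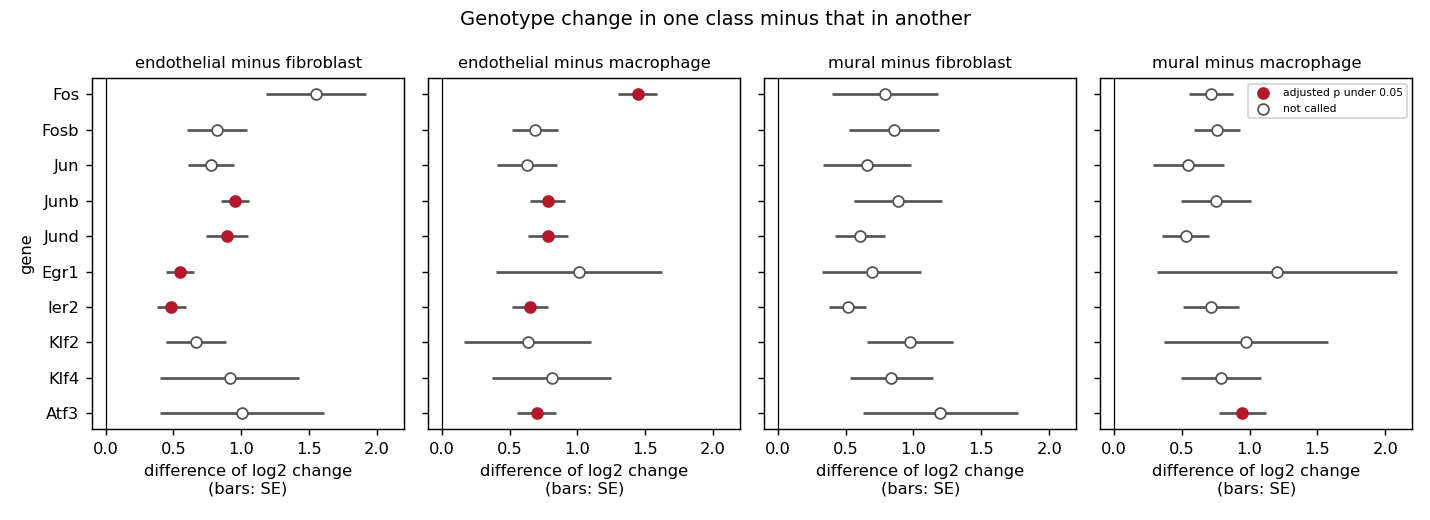
Difference of the NdpKO over NdpWT log2 change between 2 classes (points) with its SE (bars) for the 10 genes, 1 panel per class pair, filled where the adjusted p is under 0.05. All 40 points lie right of 0, with the filled ones in the 2 endothelial panels apart from Atf3 in mural minus macrophage.

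A single value per library was also compared, the mean log2(CPM + 1) of endothelial and mural cells minus that of fibroblasts and macrophages. The Gkn3, Fbln5 and Eln cluster was not part of this value. For Fos it was 0.17 and 0.21 in NdpKO and -1.23 and -0.61 in NdpWT. The mean of endothelial and mural cells was thus slightly above that of fibroblasts and macrophages in NdpKO and below it in NdpWT. Endothelial cells on their own held less Fos than fibroblasts and than macrophages in every library. For Junb it was 1.00 and 0.81 in NdpKO and -0.17 and 0.32 in NdpWT, and for Klf4 0.98 and 1.22 in NdpKO and -0.14 and 0.65 in NdpWT. The 2 NdpKO libraries lay close together for these genes and the 2 NdpWT libraries did not. For all 10 members both NdpKO libraries lay above both NdpWT libraries, against 22.9% of the 9332 genes tested. The differences ran from 0.59 for Ier2 to 1.11 ± 0.26 for Fos (adjusted p = 0.297), and limma called 0 of 10 members (0.879% of genes were called higher), with 5 at an unadjusted p under 0.05 (7.77% of genes). Without NdpWT replicate 1 limma called 9 members (1.12% of genes higher) and without NdpWT replicate 2 it called 10 (4.07%). Without NdpKO replicate 1 and without NdpKO replicate 2 it called 0 (0.14% and 0.236% of genes). The differences of all 10 members were positive in each of these 4 fits.

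**Figure D5:**
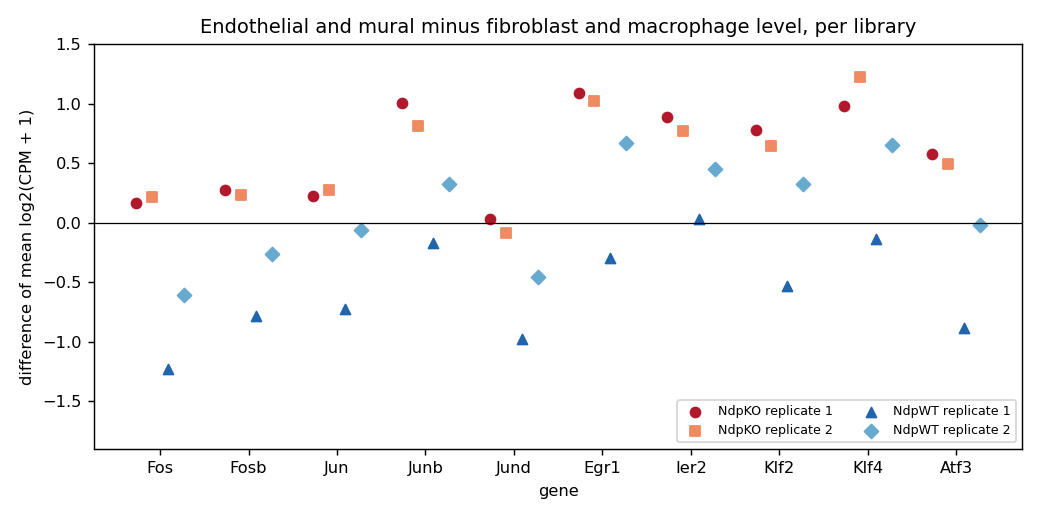
Mean log2(CPM + 1) of endothelial and mural cells minus that of fibroblast and macrophage cells, per library, for each of the 10 genes. Both NdpKO libraries lie above both NdpWT libraries for every gene, and NdpWT replicate 1 is the lowest point throughout, with -1.23 for Fos.

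Genes of the same response were read from wider lists. The lists were chosen with earlier results of these data known, so their counts are descriptions and not separate support. All list counts come from fits with every library in. In endothelial cells 4 of 43 tested other immediate early genes rose and 0 fell, against 1.47% of all genes called higher: Csrnp1, with 38.1 and 28.5 CPM in NdpKO and 13.1 and 15.4 CPM in NdpWT (log2 change 1.19), the orphan nuclear receptor Nr4a1, with 119 and 82.7 CPM in NdpKO and 52.1 and 36.5 CPM in NdpWT (1.22), the growth inhibitor Btg1 (0.65) and the kinase Plk2 (0.64). The list's median was 0.14, against 0.01 over all genes. Of 16 AP-1, ATF and MAF partners 1 rose, the Fos relative Fosl2, with 43.5 and 42.2 CPM in NdpKO and 23.1 and 22.5 CPM in NdpWT (log2 change 0.91, adjusted p = 0.0199 by edgeR). Its 2 groups were tight and far apart. Of 17 genes of the MEK5-ERK5 branch and targets of Klf2 and Klf4, 2 rose: Thbd, the anticoagulant receptor thrombomodulin, with 62.7 and 55.6 CPM in NdpKO and 37.2 and 33.4 CPM in NdpWT, and the transcription factor Mef2c, with 375 and 311 CPM in NdpKO and 233 and 210 CPM in NdpWT. The MEK5-ERK5 list as a whole did not lean up, with 8 log2 differences positive, 9 negative and a median of -0.07. The AP-1 list had 8 positive and 8 negative, with a median of 0.02. Of 16 heat shock genes and 18 upstream kinases and factors, edgeR called 0 in endothelial cells.

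In fibroblasts edgeR called 0 of 44 tested other immediate early genes, 41 of them had negative log2 differences, and the list's median was -0.39 against 0.00 over all genes. In macrophages it called 0 of 44, with 30 negative and a median of -0.07, nearer 0 than the median of the 10 members there. In mural cells it called 0 of 43, with 34 positive and a median of 0.19. The AP-1 partners, the heat shock genes, the upstream kinases and the MEK5-ERK5 list had 0 genes called in these 3 classes, with medians between -0.13 and 0.16.

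In the test between endothelial cells and fibroblasts, 19 of 45 other immediate early genes were called higher and 0 lower, against 1.93% of all genes called higher. Those with the lowest p were Btg1 (difference 1.10), Plk2 (1.26), Ier5l (0.98), Gadd45b (0.99), Dusp1 (0.85), which encodes a phosphatase that switches off MAP kinases, and Ppp1r15a (0.85), a stress-induced subunit of a phosphatase. The AP-1 list had 3 called of 17 (Fosl2 1.15, Jdp2 1.42, Atf4 0.55), the heat shock list 2 of 16 (Hspb1 0.66, Bag3 0.79) and the MEK5-ERK5 list 1 of 17 (Mef2c 0.53). Between endothelial cells and macrophages 5 of 44 other immediate early genes were called higher, against 1.1% of all genes (Btg1 0.85, Nr4a1 0.93, Csrnp1 1.09, Nfkbiz 0.62, Ier5l 0.71), with Fosl2 (0.97) and Mef2c (0.82) from the other lists. Between mural cells and fibroblasts 12 of 45 were called higher, against 0.711% of all genes, led by Cebpb (0.82), Pim1 (1.24), Zfp36 (0.80), Ccn1 (1.01), Nr4a1 (0.82) and Nfkbia (0.76), with Atf4 (0.61), Mafk (1.08) and Hspa1a (0.62) from the other lists. Between mural cells and macrophages 0 of 45 were called, against 0.0461% of all genes called higher. With the 4 classes combined, limma called 13 of 41 higher, against 0.879% of all genes, led by Gadd45b (0.67), Nr4a1 (0.85), Btg1 (0.68), Zfp36 (0.54), Ppp1r15a (0.74) and Csrnp1 (0.91), with Fosl2 (0.66) and Mef2c (0.40). Zfp36 encodes a protein that destabilises inflammatory mRNAs. Of the upstream kinases and factors 0 were called in any of these 5 tests. The counts of members called in the same tests moved with the library left out. Whether the list counts depend on single libraries, such as the high NdpWT replicate 1 of fibroblasts and macrophages, was not tested.

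Genes that followed Fos were looked for over 44 sums (11 classes by 4 libraries) after removal of each class mean, among 6982 genes. The highest Pearson r belonged to Dusp1 (0.79), Socs3 (0.75), a feedback inhibitor of cytokine signals, Siah2 (0.73), 2410006H16Rik (0.71), Btg1 (0.71), Sdf2 (0.68), Gas5 (0.66) and Laptm4a (0.62). Among the members r with Fos was 0.78 for Junb, 0.52 for Jun, 0.46 for Klf4, 0.40 for Egr1, 0.39 for each of Fosb, Klf2 and Atf3, 0.23 for Jund and 0.15 for Ier2. Other close pairs were Klf2 with Klf4 (0.78), Jun with Jund (0.75) and Jund with Ier2 (0.74). The 4 libraries supply all 44 sums, so these values share library and depth and are descriptions only.

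Shares of single cells were compared at 1 fixed depth. With every cell thinned to 2000 UMIs and shallower cells left out, Fos had a UMI in 34.5% and 38.7% of endothelial cells in NdpKO, against 29.2% and 23.9% in NdpWT. The exact 95% binomial intervals, which cover counting error only, were 26.7% to 42.9% and 33.0% to 44.7% in NdpKO and 22.2% to 37.1% and 20.6% to 27.4% in NdpWT. The unthinned shares were 64.8% and 64.0% in NdpKO and 50% and 44.3% in NdpWT, at median depths of 14369 and 8314 UMIs in NdpKO and 7847.5 and 6886 in NdpWT. Cells left out for depth numbered 34 and 68 in NdpKO and 48 and 148 in NdpWT. Erythroid cells had thinned shares of 7.08% and 5.60% in NdpKO and 7.81% and 8.69% in NdpWT. Without the cluster of 112 cells described above they were 3.62% and 4.30% in NdpKO and 4.49% and 5.6% in NdpWT. Full median depths of erythroid cells were 19600 and 8197 UMIs in NdpKO and 11725 and 6534 in NdpWT. Erythroid markers, mostly globin genes, took 646274 and 601085 CPM in NdpKO erythroid cells and 624386 and 611285 CPM in NdpWT ones. Fewer of the 2000 UMIs were thus left for other genes than in endothelial cells, so these shares are not a like background for the endothelial ones. Whether Fos in erythroid cells is background was not tested.

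In fibroblasts the thinned share was 55.3% and 58.3% in NdpKO and 75.4% and 58.9% in NdpWT, and in macrophages 46.7% and 49.0% in NdpKO and 66.5% and 53.3% in NdpWT. In both, NdpWT replicate 1 held the highest share and the other 3 libraries lay within a few points of each other. In mural cells the share was 69.7% and 68.8% in NdpKO and 64.0% and 63.1% in NdpWT. Cells with UMIs of at least 5 of the 10 members made up 26.3% and 38.1% of fibroblasts in NdpKO and 58.6% and 43.7% in NdpWT, and 35.5% and 43.5% of macrophages in NdpKO and 67.4% and 47.2% in NdpWT. The same share in endothelial cells was 38.7% and 58.4% in NdpKO and 50% and 47.9% in NdpWT, and in mural cells 55.6% and 55.4% in NdpKO and 44.9% and 50% in NdpWT. The median fibroblast held 4 and 6 member UMIs per 2000 in NdpKO replicates 1 and 2, against 10 and 7 in NdpWT replicates 1 and 2.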

How the data were processed

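Each deposited matrix, 1 per library, holds UMI counts for every gene in every barcode, which the authors produced in Cell Ranger 6.1.2 against mm10, per the submitters' processing notes. They are not normalised. No source says whether doublets or free RNA were removed upstream, and free RNA was not corrected for here. Replicates are separate pools of animals, so each counted as 1 sample. Their counts differed well past sampling noise, with a chi-square for each degree of freedom of 138 between the NdpKO replicates and 212 between the NdpWT replicates. Pairs of libraries of different genotype ran from 94.7 to 170, so replicates were no closer to each other than to the other genotype. The counts behind these values were summed over the classes tested, so differences in cell make-up enter the values.

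Kept barcodes had 500 genes and 1000 UMIs or more, with mitochondrial UMIs no higher than 10%. Scrublet (scanpy 1.11.5) marked 3 and 152 barcodes in NdpKO and 241 and 257 in NdpWT, which were removed. In NdpKO replicate 1 this is 0.0527% against an expected 4.56%, so the caller has not worked there and doublets remain. The calls were 1.40% against 8.71% in NdpKO replicate 2, 2.59% against 7.46% in NdpWT replicate 1 and 2.00% against 10.3% in NdpWT replicate 2. Every library thus fell short of the expected rate, and doublets can remain in all of them. Counts scaled to 10000 per cell, 2000 variable genes (8 of the 10 members among them), 30 principal components and 20 neighbours gave Leiden clusters at resolution 1 (leidenalg 0.10.2). A cluster took a name where at least 3 fixed markers of that type were among its 50 genes of highest fold, unless its first 10 held more markers of a different type. These rebuilt names need not match the study's.

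Counts of a class were then added up within each library. NdpKO was compared with NdpWT by edgeR 4.0.16 (quasi-likelihood, robust, TMM, minimum count 10) in R 4.3.3, with Benjamini-Hochberg adjustment over all genes tested and a threshold of 0.05. Differences between classes were tested as the class by genotype term with library as block, and the combined difference with limma 3.58.1 on log2(CPM + 1) of genes averaging at least 10 CPM. Log2 changes are NdpKO over NdpWT. The scripts were tested on simulated data. Alternatives were DESeq2 1.42.0, no TMM, no filter, a replicate block, leaving out each library, stricter cell filters (2000 UMIs, 5% mitochondrial), doublets kept, thinned cells and clustering without early and heat shock genes. Summing the endothelial clusters together, thinning in the combined fit and leaving out each erythroid cluster were added after seeing the data.

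The members, and the lists of AP-1, ATF and MAF partners (18), other immediate early genes (47), heat shock genes (16), upstream kinases and factors (18) and the MEK5-ERK5 branch (17), were chosen with earlier results of these data known. From a list, genes past the threshold over all genes are named, or the 6 with the lowest p where more passed. Genes most like Fos are the 8 with the highest r among those averaging at least 20 CPM.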

Additional observations from a re-analysis of the deposited data

Results flagged for a closer look

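Members whose NdpKO over NdpWT log2 change differed between 2 classes, by edgeR's class by genotype term with Benjamini-Hochberg adjustment over all genes tested, are given here with the change in each class.

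Between endothelial cells and fibroblasts Junb differed by 0.95, with log2 changes of 0.38 in endothelial cells and -0.60 in fibroblasts. Jund differed by 0.90 (0.24 in endothelial cells and -0.65 in fibroblasts), Egr1 by 0.55 (0.34 and -0.20 in the same order of classes) and Ier2 by 0.48 (-0.01 and -0.46). None of these 8 changes within a class passed the threshold on its own. Between endothelial cells and macrophages Fos differed by 1.44, with 1.01 in endothelial cells, which passed, and -0.52 in macrophages, which did not. Junb differed by 0.78 (0.38 in endothelial cells and -0.47 in macrophages), Jund by 0.78 (0.24 and -0.59), Atf3 by 0.70 (0.27 and -0.48) and Ier2 by 0.65 (-0.01 and -0.69). Between mural cells and macrophages Atf3 differed by 0.95, with 0.49 in mural cells and -0.48 in macrophages. With cells thinned to 1000 UMIs this difference was 0.64 ± 0.46 and not called, and the mural value was -0.12 ± 0.38. DESeq2, plain totals and leaving out NdpKO replicate 1 or NdpWT replicate 1 also lost the call.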

How the results depend on the processing

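Counts of members called moved with single libraries. Without 1 library in turn they ran from 2 to 9 for endothelial minus fibroblast, 2 to 9 for endothelial minus macrophage, 4 to 10 for mural minus fibroblast, 0 to 10 for mural minus macrophage, 0 to 10 for the 4 classes combined, 0 to 2 in endothelial cells, 0 to 7 in fibroblasts, 0 to 9 in macrophages, 0 to 2 in other neurons, and 0 to 1 each in arachnoid barrier, granule and mural cells. In these fits the lone library of a genotype is assumed to vary like those of the other. With DESeq2 the counts were 2 in fibroblasts, 2 for endothelial minus fibroblast, 1 for endothelial minus macrophage, 1 for mural minus fibroblast and 0 for mural minus macrophage. With plain totals they were 2 for mural minus fibroblast (1.19% of all genes called in either direction) and 0 for mural minus macrophage (0.0538%). With no filter they were 1 in arachnoid (0.272% of genes), 1 in fibroblast (1.34%) and 1 in other neuron cells (0.258%), 3 in macrophages (0.462%), 7 for endothelial minus fibroblast (3.99%), 7 for mural minus fibroblast (1.19%) and 8 for mural minus macrophage (0.512%), and the count over all genes also grew in each of these. With cells thinned to 1000 UMIs they were 7 for endothelial minus fibroblast (1.4%), 3 for endothelial minus macrophage (0.583%), 3 for mural minus fibroblast (0.133%) and 0 for mural minus macrophage (0.0263%). Summing both endothelial groups gave 0 in endothelial cells (2.2%). The cause of these moves was not tested.

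Thinned to 1000 in place of 2000 UMIs, the mean share of cells with Fos was 18.9% in endothelial, 50.2% in mural, 43.0% in fibroblast and 33.5% in macrophage cells.

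The replicate number is not stated to mark a litter match, and same-numbered libraries deviated together by -0.10 to 0.39 (correlation of deviations from group means, 11 classes). With the replicate block edgeR called 6 members in fibroblasts, where it called 976 of all genes (6.25%) against 7 without the block. It called 1 each in arachnoid (1.26% of genes), mural (1.42%) and other neuron cells (0.679%), limma called 1 in the 4 classes combined (3.0%), and Fos in endothelial cells was 1.02 (adjusted p = 0.00597).

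Some log2 differences turned round, with the cause not tested. In endothelial cells Atf3 was -0.0037 with the clusters summed, Ier2 0.0081 with plain totals and 0.023 with the stricter filter, and Klf2 0.015 thinned and 0.093 with the clusters summed. In mural cells Atf3 was -0.12, Ier2 -0.028 and Klf4 -0.012 thinned, Ier2 -0.0085 and Jun -0.020 with plain totals, and Jun -0.014 with the stricter filter. Without 1 library in turn, endothelial Ier2 ran from -0.19 to 0.15, Jun from -0.11 to 0.37, Klf2 from -0.39 to 0.24 and Klf4 from -0.21 to 0.66. Fos ran from -0.25 to 0.43 in the Gkn3 cluster and from -1.15 to 0.082 in fibroblasts, and Junb from -0.86 to 0.059 in macrophages. In mural cells Ier2 ran from -0.11 to 0.21, Jun from -0.042 to 0.085 and Jund from -0.16 to 0.057. These included the mural Atf3 difference of 0.49 and, without 1 library, the fibroblast Fos difference of -0.66 and the macrophage Junb difference of -0.47. Over single values and settings, 801 kept their direction and side of the threshold or stayed within the spread, 142 newly passed it, 35 no longer passed it, 24 changed sign and 7, of erythroid Fos with 1 cluster left out, moved past the spread between libraries.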

Other observations

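The 10 genes were also summed over barcodes left out by the mitochondrial limit. They came to 2341 and 2647 CPM in such barcodes of NdpKO and 2423 and 2547 CPM in those of NdpWT (plain totals), against 2549 and 2653 CPM in kept cells of NdpKO and 3288 and 2667 CPM in those of NdpWT. The high sum of NdpWT replicate 1 was seen in its kept cells and not in its 1494 barcodes over the limit. Of single members, Klf2 (178 CPM) and Klf4 (244 CPM) were highest in NdpWT replicate 1 over the limit too, and the others were not. Barcodes over the limit were not assigned to cell classes, so their make-up can differ from that of kept cells. Fosb was higher in barcodes over the limit than in kept cells of every library, with 332 and 418 CPM over the limit in NdpKO and 248 and 387 CPM in NdpWT, against 205 and 197 CPM in kept cells of NdpKO and 192 and 203 CPM in those of NdpWT. Klf4 was also higher over the limit in every library, with 154 and 153 CPM in NdpKO and 244 and 192 CPM in NdpWT, against 125 and 107 CPM in kept cells of NdpKO and 127 and 111 CPM in those of NdpWT. Fos, Junb, Jund, Ier2, Klf2 and Atf3 were lower over the limit in every library, while Jun and Egr1 differed in direction between libraries. Barcodes under the minimum of UMIs or genes held the 10 genes at 295 and 482 CPM in NdpKO and 455 and 535 CPM in NdpWT, and 4392 and 4364 such barcodes in NdpKO and 3570 and 4862 in NdpWT went into these sums. These values were looked up after the levels of kept cells were known.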
